A study of Mus musculus with 18 samples.

Results

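Brain tissue from the lesion 3 days after a photothrombotic stroke was set against tissue from the same right-side position of sham mice, gene by gene. The 6 libraries are 3 of the lesion at 3 days (replicates 1, 2 and 8) and 3 of sham right (replicates 1, 2 and 3), out of 18 libraries in the series. Per-sample values below follow these replicate orders. All mice were male C57BL/6 animals of 9 weeks with no transgene or mutation. In the stroke groups, rose bengal, a dye that clots blood where it is lit, was given into the peritoneum at 100 mg/kg. After 5 min a green laser (532 nm, 40 mW) lit the brain for 15 min. The light came through a fiber of 2 mm placed 2 mm to the right of bregma. Punches were taken from frozen brain with the lesion located by T2-weighted magnetic resonance imaging, and sham punches had a similar size. The labels carry 1 protocol text for all samples, so whether sham mice received dye, light or both is not stated. The other groups compared below are the lesion at 4 h, 1 day and 10 days, also with 3 mice each. A contralateral left group of 3 libraries entered the fit as well and served as another control. Its protocol text speaks of mice with stroke, whereas its titles and disease state say sham. Total RNA was sequenced, and levels are given as FPKM, a fragment count divided by transcript length and by library size. Genes with at least 1 FPKM in 3 or more of the 18 libraries were tested, 14016 of the 34921 genes in the table used here.

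Photothrombosis closes small cortical vessels and leaves a focal infarct with a sharp border. In the days after such an injury, resident microglia divide and take up debris, monocytes can enter from blood and become macrophages, and astrocytes around the core turn reactive and enlarge their filament network. Dying cells, leaked blood and broken myelin are then degraded in lysosomes, while vessels and matrix are rebuilt over a longer time. The questions put to the data were which of these programmes were raised at 3 days, which neuronal and glial genes were lower, and how the 3-day values stood beside those at 1 day and 10 days.

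The punches are mixtures, and fewer cells of a type cannot be told apart from less RNA per cell. Read depth is unknown, because the values carry no counts. Sums over all genes were 334540 to 354835 FPKM in 3-day lesions and 372779 to 395194 FPKM in sham tissue. Transcripts encoded in mitochondria took 25.6% to 27.2% of these sums at 3 days and 29.2% to 33.1% in sham tissue. Some libraries stood apart in part of their genes. Stroke 3 days replicate 8 had the highest fibroblast and collagen genes and the lowest Slc1a2 and Ttr. Stroke 3 days replicate 2 had the lowest level in most of the injury lists, and sham right replicate 1 had the highest interferon-stimulated genes of the sham libraries. Each affected result is given with these values beside it, and a gene that loses its call when 1 library is left out is named with 1 or more such libraries.

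Called genes had a limma p under 0.05 after Benjamini-Hochberg adjustment over all 14016 genes. Fold changes are differences of log2(FPKM + 1), so they are too small for genes near 0. Against sham right, 1032 genes were called, 7.36% of those tested. Of these, 968 were higher at 3 days (6.91%) and 64 lower (0.457%). The change was at least 1 log2 unit for 445 of the higher genes and 13 of the lower ones, and at least 3 units for 15 higher genes. The median log2 fold change was 0.94 over the higher genes, -0.71 over the lower genes and 0.08 over all genes tested. The groups did not overlap in 967 of the 968 higher genes and in all 64 lower genes. Among all genes tested, the 3-day values lay wholly above sham in 27.2% and wholly below in 9.67%. The filter on low values was passed only through the 3-day libraries by 263 genes, of which 105 were called. Quantile normalization gave 885 calls and a more even split, with 678 higher and 207 lower. Without stroke 3 days replicate 8 the calls numbered 680, of which 654 were higher and 26 lower; leaving out any other single library gave 738 to 1050 calls and 21 to 49 lower genes. By biotype, 932 protein-coding genes were higher and 47 lower, while long intergenic noncoding RNAs had 4 higher and 8 lower among 258 tested.

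**Figure D1:**
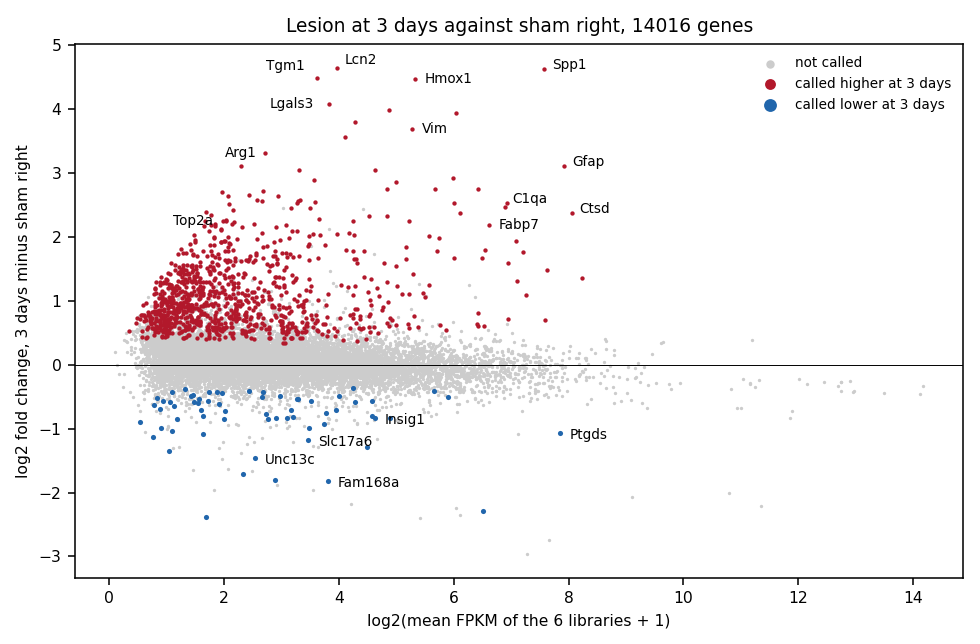
Log2 fold change of 3-day lesion minus sham right (vertical axis) against the log2 of the mean FPKM of the 6 libraries plus 1 (horizontal axis) for the 14016 genes tested; red points were called higher, blue points lower and grey points not called. The 968 red points reach 4.64, whereas all 64 blue points lie below 0 and are fewer and less far from it.

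The largest rises among genes with a mean of at least 5 FPKM were those of secreted, filament and phagocyte genes. Spp1, which encodes the secreted matrix and cytokine protein osteopontin (chr5:104435118-104441050, plus strand, GRCm38), measured 463, 208 and 425 FPKM in 3-day lesions, against 11.5, 10.3 and 18.1 FPKM in sham tissue (log2 fold change 4.64, SE 0.5, adjusted p = 1.28e-05). Lcn2, an iron-binding lipocalin (chr2:32384633-32388252, minus strand), measured 42.4, 25.5 and 19.5 FPKM, against 0.233, 0.142 and 0.075 FPKM in sham tissue (4.64, SE 0.3, adjusted p = 2.14e-07). Both were present in every lesion library at levels no sham library approached. Tgm1, a protein-crosslinking transglutaminase (chr14:55700009-55713926, minus strand), had the smallest adjusted p of the genes named here. It measured 27.4, 16.9 and 23.3 FPKM at 3 days, against 0.0154, 0.0515 and 0.0228 FPKM in sham tissue (4.49, SE 0.21, adjusted p = 6.94e-09). Hmox1, the heme-degrading oxygenase (chr8:75093621-75100589, plus strand), measured 107, 35.6 and 86 FPKM, against 2.51, 1.81 and 2.24 FPKM (4.47, SE 0.39, adjusted p = 1.97e-06). Replicate 2 was the lowest lesion library for Spp1, Tgm1 and Hmox1. The groups did not overlap in these 4 genes, which the rule that picked the largest rises required.

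The other genes among the 15 largest rises were Lgals3 (4.08), Ifi27l2a (3.99), Serpina3n (3.94), Timp1 (3.79), Vim (3.69), Ifi30 (3.56), Arg1 (3.32), Gfap (3.11), Cd68 (3.05), Ccl12 (3.05) and Gm49368, each with an adjusted p of 0.00016 or less. Timp1, an inhibitor of metalloproteinases, measured 33.8, 25.6 and 46.7 FPKM, against 2.45, 1.58 and 0.858 FPKM in sham tissue. Serpina3n, a serine protease inhibitor made by reactive astrocytes, measured 165, 100 and 101 FPKM, against 6.74, 6.65 and 7.06 FPKM. Gm49368 was at 9.69, 5.58 and 8.08 FPKM at 3 days and listed at 0 in all 3 sham libraries, so no fold change is given. In the annotation it overlaps Itgam on the same strand (chr7:128062683-128128160, against chr7:128062640-128118491), and reads of these genes cannot be told apart by position. An exact 0 may be a failed estimate in this table: 7 genes above 5 FPKM in 14 or more libraries are listed at 0 in another.

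Genes that act in cell division were higher at 3 days. All 24 tested genes of mitosis and the spindle had a positive log2 fold change (median 1.47), and 23 were called higher. This count cannot be set against the background of 6.91%, since 18 of the 24 passed the filter on low values only through the 3-day libraries. Of the other 6 genes, 5 were called higher and the median was 1.28. Anln, an actin-binding protein of the cleavage furrow that myelinating cells also express, was not called (6.92, 7.1 and 5.82 FPKM, against 5.94, 5.5 and 7.77 FPKM). Aurkb, Kif23, Cenpf and Ncapg were below the filter.

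Top2a, the topoisomerase that untangles chromosomes before they separate, measured 5.52, 3.53 and 8.28 FPKM in 3-day lesions, against 0.247, 0.435 and 0.418 FPKM in sham tissue (log2 fold change 2.25, SE 0.24, adjusted p = 1.09e-05). Mki67, which coats mitotic chromosomes and is the standard label of cycling cells, measured 5.21, 3.72 and 8.49 FPKM, against 0.335, 0.364 and 0.39 FPKM (2.26, SE 0.31, adjusted p = 0.000129). No sham library exceeded 0.435 FPKM in either gene. For members that passed the filter only through the 3-day libraries, low values elsewhere follow from the filter and add no support. The kinase Cdk1, which drives entry into mitosis, measured 2.59, 2.21 and 3.95 FPKM, against 0.0859, 0.12 and 0.232 FPKM (1.75, SE 0.15, adjusted p = 1.69e-06). Its partner cyclin Ccnb1 measured 2.79, 2.25 and 4.71 FPKM, against 0.204, 0.193 and 0.339 FPKM (1.73, SE 0.18). Ube2c, which with the anaphase-promoting complex marks cyclins for destruction, measured 4.15, 3.04 and 6.63 FPKM, against 0.153, 0.198 and 0.227 FPKM (2.18, SE 0.19). In these 5 genes the lesion libraries kept the same order, with replicate 8 highest and replicate 2 lowest. Tpx2, a spindle assembly factor, also rose (1.78, SE 0.17, adjusted p = 5.37e-06).

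The promoters of Top2a, Cdk1 and Ube2c are shown because these genes moved together and their regulation through short elements near the start is well described. The elements are the cell cycle homology region, searched as TTTGAA, and the CCAAT box, searched as CCAAT, on both strands of the 250 bases before the annotated start. The stretch shown runs from base -110 to -1, 5′ to 3′ on the gene's strand, and capitals mark either motif or its reverse complement. The sequences are from RefSeq (GRCm38.p6): Top2a at chr11:99024190-99024299, minus strand; Cdk1 at chr10:69352913-69353022, minus strand; Ube2c at chr2:164769819-164769928, plus strand.
Top2a: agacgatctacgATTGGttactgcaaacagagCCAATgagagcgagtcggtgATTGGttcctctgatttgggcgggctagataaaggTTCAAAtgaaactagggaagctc
Cdk1: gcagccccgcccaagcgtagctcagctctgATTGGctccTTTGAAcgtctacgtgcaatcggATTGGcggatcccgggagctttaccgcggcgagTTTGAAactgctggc
Ube2c: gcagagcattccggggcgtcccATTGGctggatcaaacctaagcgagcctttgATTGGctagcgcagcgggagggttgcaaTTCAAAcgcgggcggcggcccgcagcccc
Each stretch holds both elements, with CCAAT letters upstream of a TTTGAA match near the start. The TTTGAA letters were found before 9 of the 21 mitosis genes with a promoter in the table (42.9%), against 1010 of the 9971 tested genes with a promoter and 16.3% of all 27025 promoters. The CCAAT letters were found before 18 of the 21 (85.7%), against 36.2% and 34.5%. For genes of DNA replication the shares were 11.1% for TTTGAA and 72.2% for CCAAT, over 18 promoters. A match is a description of the letters and not evidence of a used site.

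Among genes of DNA replication and S phase, 16 of 22 were called higher and none lower, with a median of 0.77. Leaving aside 4 genes that passed the filter only through the 3-day libraries, 12 of 18 were higher and the median was 0.72. Rrm2, the ribonucleotide reductase subunit that supplies deoxynucleotides in S phase, measured 7.26, 6.71 and 15.9 FPKM at 3 days, against 0.658, 0.959 and 0.633 FPKM in sham tissue (2.56, SE 0.23, adjusted p = 2.74e-06). Uhrf1, which carries methylation marks through replication, measured 2.46, 1.88 and 3.61 FPKM, against 0.204, 0.243 and 0.186 FPKM (1.56, SE 0.17). The helicase subunit Mcm3 (1.29) and the thymidine kinase Tk1 (1.1) also rose, and in all 4 genes the groups did not overlap. Of 17 cell cycle regulators 5 were called higher, with a median of 0.44, or 3 of 15 without genes past the filter only through the 3-day libraries. Ccnd1, the cyclin of early G1, measured 26.1, 21.2 and 31.1 FPKM, against 6.94, 6.72 and 6.44 FPKM (1.8, SE 0.19, adjusted p = 7.62e-06). The others were Cdkn3 (1.48), the kinase inhibitor Cdkn2c (1.21), Rbl1 (0.76) and E2f1 (0.46), the last of which loses its call without sham right replicate 2 (adjusted p = 0.16) and without 3 other libraries. The p53 target Cdkn1a measured 11.3, 8.58 and 17 FPKM, against 6.68, 5.93 and 4.78 FPKM, and was not called (0.93, adjusted p = 0.16). None of 6 replication-dependent histone genes was called by limma, and 1 had an unadjusted p under 0.05.

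**Figure D2:**
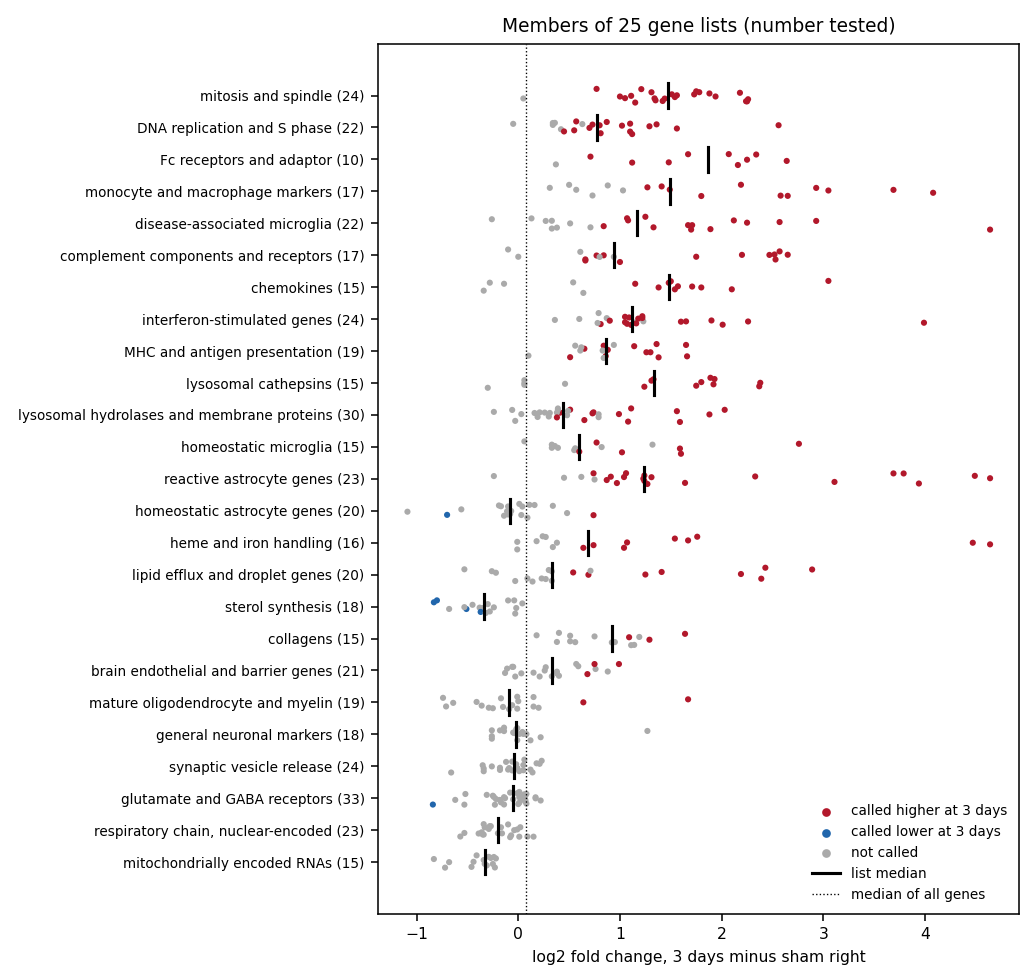
Log2 fold change of 3-day lesion minus sham right for the tested members of 25 gene lists, 1 point a gene, with a black bar at each list's median and a dotted line at the median of all genes (0.08). Mitosis, Fc receptor, chemokine and monocyte and macrophage lists have medians from 1.47 to 1.87, while neuronal lists lie close to 0 and sterol synthesis lies below it. Of the 24 mitosis genes, 18 passed the filter on low values only through the 3-day libraries, and the other 6 had a median of 1.28.

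Microglial genes rose in part. In the list of homeostatic microglia, genes that mark resting microglia, 6 of 15 were called higher and none lower (median 0.60). Fcrls measured 89.1, 71.3 and 102 FPKM in 3-day lesions, against 11.7, 12.1 and 12.1 FPKM in sham tissue (log2 fold change 2.76, SE 0.24, adjusted p = 1.97e-06). Csf1r, the receptor that microglia and macrophages need to survive, measured 40.9, 31.8 and 49.6 FPKM, against 13.3, 12 and 12.6 FPKM (1.6, SE 0.16). In both genes the lesion values lay far above every sham value. P2ry12, the ADP receptor that guides microglial processes, was at 9.56, 22.5 and 11.6 FPKM at 3 days, against 22.5, 10.485 and 9.19 FPKM in sham tissue, so the groups overlapped over their whole range (0.06, adjusted p = 0.971). Cx3cr1, the receptor for the neuronal chemokine fractalkine, was at 4.02, 3 and 4.51 FPKM, against 2.2, 1.12 and 4.2 FPKM (0.55, adjusted p = 0.739). Tmem119 was called higher (17.5, 13.8 and 15.6 FPKM, against 8.67, 5.95 and 7.12 FPKM; 1.02, adjusted p = 0.027) but not when sham right replicate 2 was left out (adjusted p = 0.131), nor without 3 other libraries. Selplg rose by 0.77 (adjusted p = 0.00109).

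Disease-associated microglia genes, a set that microglia raise around damaged tissue, had 14 of 22 members higher and none lower, with a median of 1.17. Trem2, the lipid-sensing receptor of that state, measured 11.2, 8.41 and 11.4 FPKM at 3 days, against 2.65, 2.17 and 2.57 FPKM in sham tissue (1.7, SE 0.19, adjusted p = 2.04e-05). The cystatin gene Cst7 measured 4.27, 2 and 3.29 FPKM, against 0.124, 0.0892 and 0.1 FPKM (1.89, SE 0.18). Cd52 (2.57) and Ctsl (1.33) rose as well. Gpnmb, a glycoprotein of lysosome-rich phagocytes, measured 8.3, 2.35 and 5.43 FPKM, against 0.504, 0.318 and 0.243 FPKM (2.12, SE 0.37, adjusted p = 0.00105). Other members named in many studies were near or under the threshold. Clec7a was at 2.06, 1.01 and 2.37 FPKM, against 0.369, 0.261 and 0.31 FPKM (1.07, adjusted p = 0.0445), and it loses the call without stroke 3 days replicate 8 (adjusted p = 0.221) and without 4 other libraries. Itgax was at 0.202, 0.275 and 0.606 FPKM, against 0.0131, 0.0366 and 0.0625 FPKM, and was not called (0.38, adjusted p = 0.27). Apoe, the main lipid carrier of the brain, was at 272, 227 and 260 FPKM, against 354, 245 and 320 FPKM, with overlapping groups (-0.26, adjusted p = 0.618).

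Markers that blood monocytes and macrophages share with activated microglia were higher too, 11 of 17 tested with a median of 1.49. Lgals3, a galectin of phagocytes, measured 43.1, 11.9 and 23.2 FPKM in 3-day lesions, against 0.8, 0.236 and 0.28 FPKM in sham tissue (4.08, SE 0.34, adjusted p = 1.44e-06). The lysosomal glycoprotein gene Cd68 measured 54.7, 27.4 and 47.3 FPKM, against 3.36, 4.73 and 4.43 FPKM (3.05, SE 0.29). Adgre1, which encodes the F4/80 antigen, measured 14.1, 8.94 and 15.8 FPKM, against 1.57, 2.12 and 2.27 FPKM (2.19, SE 0.17). For all 3 genes replicate 2 was the lowest lesion library and still exceeded every sham library. The summed level of the 17 markers was 209 to 395 FPKM at 3 days and 30.4 to 37.5 FPKM in sham tissue. Mrc1, the mannose receptor of border macrophages, was at 2.06, 1.34 and 3.46 FPKM, against 0.784, 0.861 and 1.09 FPKM (0.73, adjusted p = 0.0827). Ccr2, a defining receptor of inflammatory monocytes, was below the filter, and the share of blood-derived cells in these values was not tested.

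Genes of alternative macrophage activation, a repair-associated state, had 4 of 6 members higher (median 1.5) beside a pair, Arg1 and another, that passed the filter on low values only through the 3-day libraries. Arg1, the arginase that competes for arginine, measured 14.5, 4.15 and 14.6 FPKM at 3 days, against 0.137, 0.0378 and 0.0654 FPKM in sham tissue (3.32, SE 0.3, adjusted p = 2.14e-06). Msr1, a scavenger receptor for modified lipoproteins, measured 5.11, 1.74 and 3.77 FPKM, against 0.0411, 0.0552 and 0.0736 FPKM (2.03, SE 0.27). Il4ra, the receptor chain for interleukin 4, measured 5.42, 3.19 and 5.03 FPKM, against 0.78, 0.996 and 0.704 FPKM (1.58, SE 0.17), and Tgm2 rose by 1.58 (SE 0.21). The chitinase-like gene Chil3 measured 1.61, 1.24 and 1.39 FPKM, against 0.0846, 0.027 and 0.0302 FPKM (1.2, adjusted p = 0.00123). In each of these 5 genes, every lesion value was above every sham value.

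Complement genes rose, 12 of 17 tested, with a median of 0.94 and none lower. Without 1 gene past the filter only through the 3-day libraries, 11 of 16 were higher (0.97). C1qa, C1qb and C1qc encode the chains of the protein that starts the classical pathway. C1qa measured 233, 159 and 208 FPKM in 3-day lesions, against 40.9, 28.8 and 35.5 FPKM in sham tissue (2.47, SE 0.25, adjusted p = 7.57e-06). C1qb measured 234, 179 and 207 FPKM, against 40.2, 29.6 and 35.7 FPKM (2.52, SE 0.25). C1qc measured 129, 90.4 and 106 FPKM, against 20.7, 15 and 18.1 FPKM (2.53, SE 0.24). The 3 chains had nearly the same fold change and the same order of libraries within each group. Itgb2, the beta chain of complement receptor 3, measured 9.1, 5.9 and 10.24 FPKM, against 1.02, 1.09 and 0.915 FPKM (2.2, SE 0.21). Receptors for the Fc part of antibodies followed, with 9 of 10 genes higher and a median of 1.87, a count that stayed at 9 whichever library was left out. Fcgr4, which binds IgG2 subclasses, measured 8.11, 4.1 and 6.69 FPKM, against 0.175, 0.0609 and 0.176 FPKM (2.64, SE 0.25, adjusted p = 3.57e-06). The high-affinity receptor Fcgr1 (2.07) and the signalling kinase Lyn (1.67) rose as well.

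Of 13 Toll-like receptor and signalling genes, 8 were higher (median 0.68), or 7 of 12 without 1 gene past the filter only through the 3-day libraries. Tlr2, a sensor of lipoproteins, measured 4.62, 3.56 and 4.77 FPKM at 3 days, against 0.414, 0.395 and 0.5 FPKM in sham tissue (1.88, SE 0.15, adjusted p = 1.44e-06). Its co-receptor Cd14 measured 14.4, 8.2 and 11.1 FPKM, against 1.93, 1.35 and 1.79 FPKM (2.16, SE 0.23). Tlr13 (1.73) and Tlr1 (1.05) rose too. In none of these 4 genes did the groups overlap.

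Chemokines were higher in 10 of 15 tested genes, with a median of 1.48. Ccl2, which draws monocytes through the receptor Ccr2, measured 4.5, 3.25 and 5.42 FPKM at 3 days, against 0.476, 0.116 and 0.171 FPKM in sham tissue (2.1, SE 0.29, adjusted p = 0.000136). Ccl12, its close relative in mice, measured 16.4, 13.8 and 19.4 FPKM, against 1.97, 0.73 and 0.791 FPKM (3.05, SE 0.43, adjusted p = 0.00016). Cxcl16, a membrane-bound chemokine, measured 3.39, 2.47 and 3.72 FPKM, against 0.687, 0.407 and 0.709 FPKM (1.38, SE 0.17). Ccl8 rose by 1.57 (adjusted p = 0.00126). Neighbouring Ccl genes are similar in sequence, and reads may have been split between them. Ccl3 was called (5.25, 1.82 and 2.08 FPKM, against 0.144, 0.404 and 0.37 FPKM; 1.54, adjusted p = 0.0206) but not without stroke 3 days replicate 1 (adjusted p = 0.133) and without any sham library. Cxcl10 was called (1.48, adjusted p = 0.00773) but not without stroke 3 days replicate 8 (adjusted p = 0.0582). Cxcl1, a chemokine for neutrophils, was not called (0.54, adjusted p = 0.29). Among chemokine receptors, Cmklr1 was called higher and loses the call without stroke 3 days replicate 1 or 8 (adjusted p = 0.0593 and 0.069).

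In the interleukin and TNF system 7 of 17 genes were higher, with a median of 0.82. These were mostly receptors. Tnfrsf1a, the main receptor for tumour necrosis factor, measured 11.1, 8.09 and 12.1 FPKM at 3 days, against 2.93, 2.64 and 2.64 FPKM in sham tissue (1.6, adjusted p = 3.36e-05). Tnfrsf1b (1.42) and the shared interleukin 10 receptor chain Il10rb (0.92) rose as well. The cytokine Il1b itself was at 0.465, 0.351 and 1.34 FPKM, against 0.434, 0.463 and 0.553 FPKM (0.17, adjusted p = 0.818). Tnf was below the filter, at 0.16, 0.163 and 0.251 FPKM, against 0.155 FPKM in sham replicate 1 and a listed 0 in the other sham libraries.

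Interferon-stimulated genes rose, 17 of 24 tested, with a median of 1.12 and none lower. All 24 had a positive fold change. Ifi27l2a measured 48.1, 34.1 and 80.4 FPKM in 3-day lesions, against 3.97, 1.23 and 2.15 FPKM in sham tissue (3.99, SE 0.35, adjusted p = 1.97e-06). Ifitm3, a membrane protein that blocks virus entry, measured 79.8, 55.7 and 90 FPKM, against 23.4, 13.2 and 17.3 FPKM (2.01, SE 0.23). Oas1a, a sensor of double-stranded RNA, measured 5.72, 3.64 and 7.57 FPKM, against 1.66, 0.384 and 0.383 FPKM (1.9, SE 0.23). Irf8, a transcription factor of myeloid cells, measured 3.13, 2.35 and 3.04 FPKM, against 0.701, 0.54 and 0.676 FPKM (1.22, SE 0.14). Bst2, which tethers virus particles, measured 32.2, 18 and 39.9 FPKM, against 9.45, 2.75 and 5.01 FPKM (2.26, SE 0.38, adjusted p = 0.000869). None of these 5 genes had overlapping groups, and sham replicate 1 was the highest sham library in all of them.

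That sham library bears on the genes of the list that were not called. Isg15, a ubiquitin-like modifier, was at 21.5, 13.1 and 24.2 FPKM at 3 days, against 18.4, 4.06 and 5.42 FPKM (1.23, adjusted p = 0.212), so sham replicate 1 lay above stroke 3 days replicate 2. Ifit1 was at 6.26, 5.59 and 11.4 FPKM, against 7.23, 1.15 and 2.16 FPKM (1.14, adjusted p = 0.102). Ifit3, an RNA-binding effector of the same family, was at 25.8, 21.6 and 38.8 FPKM, against 14, 5.61 and 7.73 FPKM, and was called (1.6, SE 0.3, adjusted p = 0.002). The mean level of the list relative to sham was 1.28, 0.91 and 1.69 log2 units in the lesion libraries, against 0.43, -0.30 and -0.13 in the sham libraries. Between 15 and 20 genes of the list were called when 1 library was left out.

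The promoters of Isg15, Ifit3 and Bst2 are shown because the list is defined by its response to interferon, which acts through the interferon-stimulated response element. The element was searched as GAAA, any 2 bases and GAAA again, on both strands of the 250 bases before the start, and capitals mark matches and their overlaps. Sequences are from RefSeq (GRCm38.p6), 5′ to 3′ on the gene's strand: Isg15 at chr4:156200849-156200928, minus strand, bases -110 to -31; Ifit3 at chr19:34583359-34583438, plus strand, bases -170 to -91; Bst2 at chr8:71537543-71537622, minus strand, bases -150 to -71.
Isg15: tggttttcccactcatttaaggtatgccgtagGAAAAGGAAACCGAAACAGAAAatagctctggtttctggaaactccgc
Ifit3: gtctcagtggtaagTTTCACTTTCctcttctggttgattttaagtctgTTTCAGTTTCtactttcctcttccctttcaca
Bst2: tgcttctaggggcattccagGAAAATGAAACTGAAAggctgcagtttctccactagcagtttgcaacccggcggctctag
Overlapping matches form a single run in Isg15 and Bst2, while Ifit3 has a pair of separate matches on the other strand. The letters were found before 10 of the 19 listed genes with a promoter in the table (52.6%), against 2.58% of tested genes and 3.04% of all promoters. Isg15 carries the letters and was not called, whereas Ifit3 and Bst2 carry them and were called.

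Of 19 genes of antigen presentation, 12 were higher and none lower (median 0.86). Leaving aside 1 gene past the filter only through the 3-day libraries, 11 of 18 were higher (0.85). The class I heavy chain gene H2-D1 measured 58.2, 42.4 and 59.8 FPKM at 3 days, against 17.7, 13.8 and 17.1 FPKM in sham tissue (1.66, SE 0.19, adjusted p = 2.27e-05). H2-K1 measured 31.4, 21.8 and 32.9 FPKM, against 9.86, 5.93 and 9.75 FPKM (1.65, SE 0.21). Near-identical H2 genes may share reads, so the division between them is uncertain. The peptide transporter Tap1 (0.86) and H2-DMb1, which helps load class II molecules (1.3), also rose. The class II chains themselves were not called. H2-Aa was at 1.75, 2.11 and 7.71 FPKM, against 1.27, 1.06 and 3.38 FPKM (0.62, adjusted p = 0.481), and the invariant chain Cd74 was at 3.95, 4.62 and 16.8 FPKM, against 3.02, 1.53 and 7.41 FPKM (0.84, adjusted p = 0.395). For both, stroke 3 days replicate 8 was highest and sham replicate 3 exceeded other lesion libraries.

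**Figure D3:**
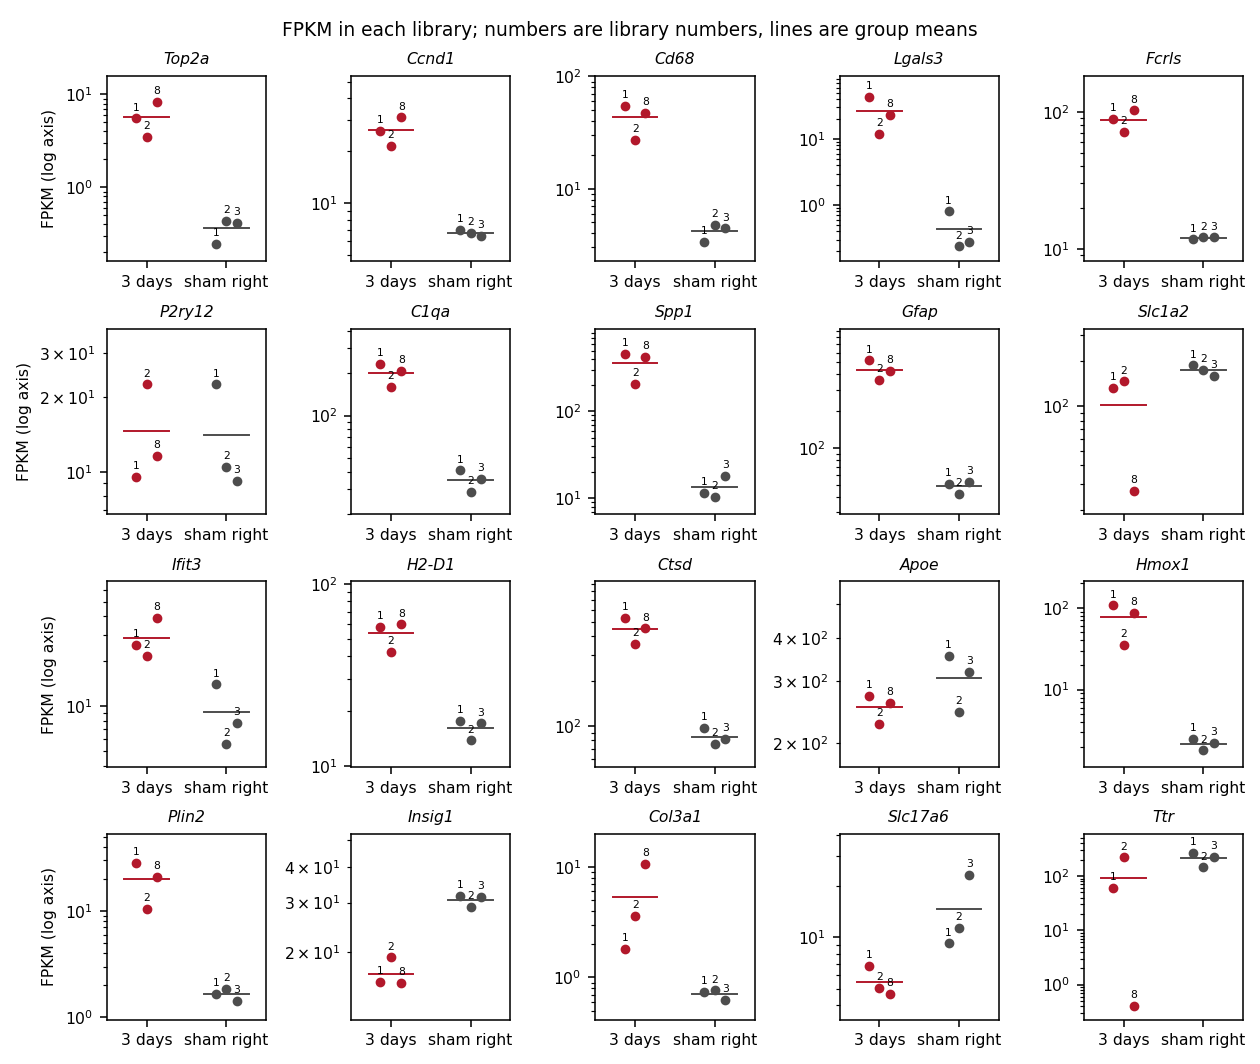
FPKM of 20 genes in each of the 3 lesion libraries at 3 days (left) and the 3 sham right libraries (right) on a log axis, with replicate numbers at the points and a line at each group mean. Top2a, Cd68, Gfap and Plin2 show no overlap between groups, whereas P2ry12, Apoe and Ttr overlap and Slc1a2 is low in stroke 3 days replicate 8.

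Lysosomal proteases were higher. Of 15 cathepsins and related proteases, 10 rose and none fell (median 1.33), and the same number was called whichever library was left out. Ctsd, an aspartic protease, measured 529, 355 and 452 FPKM in 3-day lesions, against 96.7, 76 and 81.7 FPKM in sham tissue (2.37, SE 0.18, adjusted p = 1.01e-06). Ctsz measured 137, 88.1 and 118 FPKM, against 22, 19.3 and 21.4 FPKM (2.38, SE 0.17, adjusted p = 6.16e-07). Lgmn, the asparagine-specific legumain, measured 159, 113 and 161 FPKM, against 41.1, 38.6 and 41.5 FPKM (1.8, SE 0.16). Sham values were tight in all 3 genes, and Ctsh rose by 1.75. Of 30 further lysosomal hydrolases and membrane proteins 13 were higher (median 0.44), with Grn (2.03), Laptm5 (1.88) and Gusb (1.56) in that number. That count was 8 without sham right replicate 1, sham right replicate 2 or stroke 3 days replicate 1.

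Phagocyte receptors and the superoxide-producing oxidase had 11 of 16 genes higher and 1 lower (median 1.14). Ncf1, a cytosolic oxidase subunit, measured 9.38, 5.72 and 10.3 FPKM at 3 days, against 1.41, 1.34 and 1.34 FPKM in sham tissue (1.97, SE 0.17, adjusted p = 1.97e-06). The receptor Havcr2 (1.49) rose as well. Cd5l, a scavenger protein of tissue macrophages, was at 7.06, 3.24 and 7.03 FPKM at 3 days and listed at 0 in all 3 sham libraries. The gene called lower was Mfge8, a bridge between phagocytes and dying cells, at 7.08, 7.82 and 9.74 FPKM, against 12.9, 12.7 and 12.3 FPKM (-0.57, adjusted p = 0.0458), and it loses the call without stroke 3 days replicate 1 (adjusted p = 0.219) and without 4 other libraries. In the actin and phagocyte cytoskeleton list 17 of 29 genes rose (median 0.77), led by Capg (2.24), Rac2 (1.92), Fermt3 (1.62) and Vav1 (1.29).

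Some lipid handling genes were higher and some genes of sterol synthesis lower. In the list of lipid efflux and droplet genes, 8 of 20 were higher (median 0.33), a count that fell to 4 without stroke 3 days replicate 1 or replicate 8. Plin2, which coats lipid droplets, measured 28.6, 10.498 and 20.9 FPKM in 3-day lesions, against 1.65, 1.84 and 1.43 FPKM in sham tissue (2.89, SE 0.27, adjusted p = 3.75e-06). Ch25h, which makes 25-hydroxycholesterol, measured 8.41, 6.07 and 5.21 FPKM, against 0.508, 0.348 and 0.301 FPKM (2.43, SE 0.2, adjusted p = 1.44e-06). Fabp7, a fatty acid carrier of radial glia and astrocytes, measured 149, 120 and 215 FPKM, against 30, 36.1 and 35.1 FPKM (2.19, SE 0.31). Apoc2, an activator of lipoprotein lipase, was at 4.29, 2.84 and 6.08 FPKM and listed at 0 in sham tissue.

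Genes of cholesterol synthesis were lower in 4 of 18 cases and higher in none, beside 0.457% of all genes called lower, and 17 of the 18 had a negative fold change (median -0.34). With the contralateral left as control the median was -0.04, and 2 genes were called. Rescaling without mitochondrial transcripts also gave 2 calls, whereas median-of-ratios scaling and quantile normalization gave 6 each. Insig1, the sterol-sensitive anchor in the endoplasmic reticulum (chr5:28071363-28078662, plus strand), measured 15.7, 19.2 and 15.6 FPKM at 3 days, against 31.6, 29 and 31.4 FPKM in sham tissue (-0.83, SE 0.12, adjusted p = 0.000202). Idi1, an isomerase of the isoprenoid steps, measured 15.7, 19.1 and 14.8 FPKM, against 31.8, 27 and 29.5 FPKM (-0.80, SE 0.17, adjusted p = 0.00598). In both genes every lesion value was below every sham value. Hmgcs1, which makes the precursor of mevalonate, measured 42.7, 56.3 and 46.1 FPKM, against 76.3, 66.3 and 64.5 FPKM (-0.51). Cyp51, a demethylase late in the pathway, measured 13.4, 17.3 and 15.6 FPKM, against 20.8, 19.5 and 20.4 FPKM (-0.37). Both lose their call without stroke 3 days replicate 1 (adjusted p = 0.195 and 0.272) and without 4 other libraries, and the list then had 2 calls, as with most other single omissions. The sterol response element, searched as TCACNCCAC, was found before 1 of 12 listed genes with a promoter (8.33%), against 0.963% of tested genes and 1.04% of all promoters. CCAAT was found before 11 of 12 (91.7%).

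Heme and iron genes were higher in 9 of 16 cases (median 0.69). Beside Hmox1 and Lcn2 these included the iron transporter Slc11a1 of phagocyte lysosomes (1.54, adjusted p = 8.2e-06) and Hfe, a regulator of iron uptake (1.07, adjusted p = 5.99e-05). Ftl1, the ferritin light chain, measured 289, 190 and 204 FPKM at 3 days, against 73.8, 53.1 and 70.9 FPKM in sham tissue (1.76, adjusted p = 0.00142). Hemoglobin transcripts of red cells were close between the groups, with Hba-a1 at 72.5, 98.4 and 85.5 FPKM, against 114, 95.3 and 98.4 FPKM. Among Nrf2 targets and metallothioneins 5 of 17 rose (median 0.36). Mt2, a metal-binding protein, measured 361, 249 and 264 FPKM, against 96.4, 101 and 109 FPKM (1.49, SE 0.26, adjusted p = 0.00116), and Mt1 rose by 1.1. Nfe2l2, which encodes the factor Nrf2, measured 11.1, 7.87 and 12.9 FPKM, against 4.33, 3.88 and 4.46 FPKM (1.13, SE 0.22). Gsr rose by 0.60, and Txnrd1 (0.53) loses its call without sham right replicate 2 (adjusted p = 0.105) and without stroke 3 days replicate 1 or 8.

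Reactive astrocyte genes rose almost throughout, 19 of 23 tested with a median of 1.24, and 18 or 19 were called whichever library was left out. Without 1 gene past the filter only through the 3-day libraries, 18 of 22 were higher and the median was again 1.24. Gfap, the astrocyte intermediate filament, measured 517, 362 and 424 FPKM in 3-day lesions, against 51.1, 42.7 and 53 FPKM in sham tissue (3.11, SE 0.26, adjusted p = 1.44e-06). Vim, a filament of immature and reactive cells, measured 82.4, 58.3 and 72.9 FPKM, against 5.13, 4.62 and 3.97 FPKM (3.69, SE 0.24, adjusted p = 2.14e-07). Nes, a filament of neural stem cells, measured 7.15, 5.3 and 8.34 FPKM, against 1.57, 1.46 and 1.51 FPKM (1.64, SE 0.21). All 3 filaments were above sham in every library. Lmnb1 of the nuclear lamina also rose (1.02), and so did the hyaluronan receptor Cd44, which measured 3.27, 1.69 and 3.03 FPKM, against 0.487, 0.519 and 0.334 FPKM (1.31).

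Genes of resting astrocytes did not share this direction. Of 20 such genes 1 was called higher and 1 lower, with a median of -0.08. The share called higher, 5%, is near the 6.91% of all genes, of which 0.457% were called lower. Aldh1l1, a folate enzyme and astrocyte label, measured 18.3, 14.7 and 16.3 FPKM at 3 days, against 10, 8.39 and 9.79 FPKM in sham tissue (0.74, adjusted p = 0.0322), and loses its call without stroke 3 days replicate 1 (adjusted p = 0.144) and without 4 other libraries. The proteoglycan gene Gpc5 measured 6.21, 6.07 and 5.15 FPKM, against 11, 8.59 and 10.8 FPKM (-0.70, adjusted p = 0.00727), and is not called without stroke 3 days replicate 8 (adjusted p = 0.052). Slc1a2, the main glutamate transporter, was at 133, 147 and 26.9 FPKM, against 188, 175 and 160 FPKM. All lesion values were lower, with replicate 8 far below the others, and the gene was not called (-1.09, adjusted p = 0.165). Without stroke 3 days replicate 8 no gene of this list was called, Slc1a2 included. The water channel Aqp4 was at 52.4, 43.5 and 61.4 FPKM, against 33.1, 35.4 and 42.9 FPKM (0.48, adjusted p = 0.12).

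**Figure D4:**
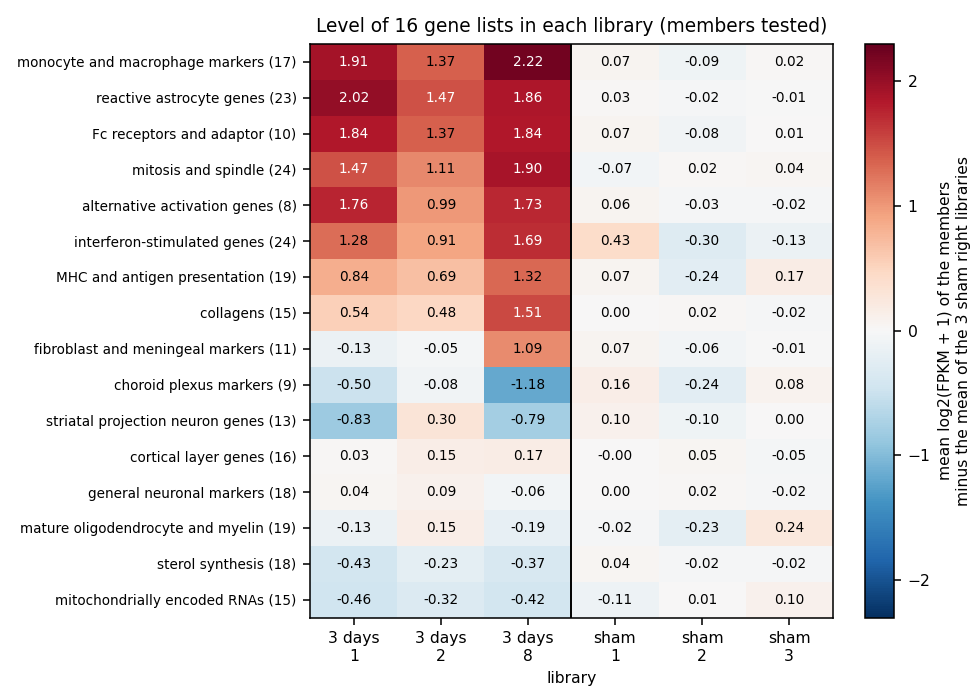
Mean level of 16 gene lists in each of the 6 libraries, in log2 units relative to the sham right mean, with the 3 lesion libraries at left. Monocyte and macrophage, reactive astrocyte, Fc receptor and mitosis lists are raised in all 3 lesion libraries, between 1.11 and 2.22, while fibroblast genes are raised in stroke 3 days replicate 8 (1.09) and not in replicates 1 and 2 (-0.13 and -0.05). The mitosis level cannot be ranked beside the others, since 18 of its 24 genes passed the filter only through the lesion libraries shown.

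Matrix genes differed between the lesion libraries. Of 15 collagen genes all had a positive fold change (median 0.92) but 3 were called. Col3a1, a fibrillar collagen, measured 1.8, 3.6 and 10.7 FPKM at 3 days, against 0.747, 0.764 and 0.624 FPKM in sham tissue (1.64, SE 0.38, adjusted p = 0.011). Col4a1 of the basement membrane measured 8.76, 6.78 and 12.8 FPKM, against 3.04, 3.28 and 3.13 FPKM (1.29, adjusted p = 0.031). Replicate 8 was the highest lesion library in both. Col4a1 and Col16a1 (1.09) lose their call without stroke 3 days replicate 8 (adjusted p = 0.18 and 0.238) and without 4 other libraries each, and 1 collagen is then called, whereas 5 are called without replicate 2. Col1a1 was at 1.57, 2.54 and 10 FPKM, against 1.02, 1.08 and 1.03 FPKM, and was not called (1.19, adjusted p = 0.0958). The fibroblast markers moved with these values: their summed level was 177, 208 and 312 FPKM in the lesions, against 332 to 387 FPKM in sham tissue, of which Ptgds makes up the largest share. Dcn was at 4.32, 4.79 and 16.7 FPKM, against 5.62, 4.78 and 5.43 FPKM, and Lum at 2.95, 2.51 and 10.9 FPKM, against 1.57, 1.79 and 2.35 FPKM. The part of meningeal tissue in the collagen values was not tested.

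Among matrix glycoproteins 5 of 26 were higher (median 0.42), and 8 without stroke 3 days replicate 2. Leaving aside 3 genes past the filter only through the 3-day libraries, 4 of 23 were higher (0.40). Tnc, a glycoprotein of healing tissue, measured 2.62, 1.54 and 4.48 FPKM at 3 days, against 0.371, 0.549 and 0.578 FPKM in sham tissue (1.3, SE 0.23, adjusted p = 0.00131). Fn1, which forms provisional matrix, measured 9.92, 8.16 and 15.8 FPKM, against 3.48, 3.26 and 3 FPKM (1.49, SE 0.25). Tgfbi (1.63) and Thbs1 (1.47) rose, and Lox (1.43) loses its call without stroke 3 days replicate 8 (adjusted p = 0.15) and without any sham library. Of 18 metalloproteinases and inhibitors 6 were higher (median 0.57), among them Timp1, Mmp2 (0.92) and the sheddase Adam17 (0.71). With 1 such gene left aside, 5 of 17 were higher (0.42). Adam8, a sheddase of leukocytes, measured 8.13, 1.92 and 4.77 FPKM, against 0.118, 0.282 and 0.188 FPKM (2.17, SE 0.29). In the TGF-beta system 5 of 20 rose (median 0.29). Tgfb1 itself measured 2.21, 1.63 and 2.87 FPKM, against 0.862, 0.505 and 0.54 FPKM (0.97, SE 0.13, adjusted p = 0.000105), and the receptor Tgfbr2 rose by 0.90. Eng (0.62) loses its call without stroke 3 days replicate 8 (adjusted p = 0.139) and without 4 other libraries.

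Growth factor carriers and calcium-binding proteins rose in part. In the IGF system 3 of 10 were higher, all of them binding proteins (list median 0.44). Igfbp2 measured 91.3, 66.9 and 95.2 FPKM in 3-day lesions, against 22.6, 18 and 20.8 FPKM in sham tissue (1.98, SE 0.42, adjusted p = 0.00577). Igfbp7 measured 47.6, 43.7 and 47.1 FPKM, against 18.3, 13.3 and 14.5 FPKM (1.54), and Igfbp3 rose by 1.17. Igf1 was at 2.33, 1.42 and 1.99 FPKM, against 0.949, 1.01 and 1.14 FPKM (0.51, adjusted p = 0.367). Of 18 S100 proteins and annexins 8 were higher (median 0.80), a count of 5 without sham right replicate 2, stroke 3 days replicate 1 or stroke 3 days replicate 8. S100a11 measured 48.9, 36.6 and 62 FPKM, against 7.28, 6.12 and 5.5 FPKM (2.76, SE 0.36). Anxa2, a membrane-binding protein that also assembles plasmin at cell surfaces, measured 21.7, 13.3 and 24.6 FPKM, against 3.3, 3.04 and 3.13 FPKM (2.29, SE 0.22). S100a4 (2.09) and Anxa3 (1.21) rose too. Of 17 integrin and laminin subunits 6 rose (median 0.36), with Itgb2, Itga5 (1.37), Itgb5 (1.25) and Itga6 (1.04) in that number.

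Among vessel genes, those of endothelial activation and of clotting held most calls against sham right. Of 21 brain endothelial and barrier genes 3 were called higher, 14.3% beside 6.91% of all genes (median 0.33): the glucose transporter Slc2a1 (0.99), Podxl (0.75) and Pecam1 (0.68). All 3 lose their call without stroke 3 days replicate 1 (adjusted p = 0.136, 0.0774 and 0.0726), Slc2a1 also without any sham library and Pecam1 without 4 other libraries. Pecam1, an adhesion molecule of endothelium, measured 5.35, 4.67 and 6.3 FPKM, against 2.73, 3.16 and 3.1 FPKM in sham tissue. Cldn5, the main tight junction protein, was at 38.5, 38.2 and 40.2 FPKM, against 35.1, 26.1 and 28.7 FPKM (0.38, adjusted p = 0.706). Of 13 genes of endothelial activation and angiogenesis 7 were higher (median 0.63), with Ctla2a (1.78), Adm (1.05) and Icam1 (0.99) beside Ch25h. Icam1, which holds leukocytes to endothelium, measured 1.58, 1.36 and 2.43 FPKM, against 0.453, 0.332 and 0.377 FPKM. Vcam1, a second such molecule, was not called (0.37, adjusted p = 0.137). The smooth muscle gene Tagln was the only pericyte and smooth muscle marker called of 13, at 11.2, 12.3 and 13.7 FPKM, against 3.21, 4.69 and 5.26 FPKM (1.33, adjusted p = 0.000392), while Pdgfrb was not (0.16). The share of that list, 7.69%, is near the 6.91% of all genes. With the contralateral left as control, 7 of these 13 markers were called (median 0.6), beside 1400 of all 14016 genes. Of the 21 endothelial and barrier genes, 9 were called with that control (median 0.7). In the clotting and plasminogen list 5 of 14 rose (median 0.74), or 4 of 12 (0.53) without a pair of genes past the filter only through the 3-day libraries, with Anxa2, Plau (1.35), Plaur (1.14) and Procr (0.99) in that number.

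Enzymes of prostaglandins and leukotrienes had 7 of 12 members higher and 1 lower (median 0.63). Alox5ap, needed for leukotriene synthesis, measured 14.2, 8.69 and 11.8 FPKM at 3 days, against 2.04, 1.95 and 2.62 FPKM in sham tissue (1.95). Ltc4s (1.62), Hpgds (1.29) and Tbxas1 (0.84) rose. Ptgds, a prostaglandin D2 synthase of the meninges and choroid plexus, was the gene called lower, at 125, 147 and 173 FPKM, against 326, 282 and 321 FPKM (-1.07, SE 0.28, adjusted p = 0.0267). It loses its call without stroke 3 days replicate 1 (adjusted p = 0.13) and without 4 other libraries.

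Neuronal genes were close to sham levels in this comparison. Rbfox3, which encodes the nuclear antigen NeuN, was at 28.2, 30.2 and 25 FPKM in 3-day lesions, against 28.7, 30.8 and 24.7 FPKM in sham tissue (-0.01, adjusted p = 0.989). Snap25, a protein of vesicle fusion, was at 428, 489 and 349 FPKM, against 436, 441 and 390 FPKM (-0.01, adjusted p = 0.988). Slc17a7, the vesicular glutamate transporter of cortex, was at 105, 112 and 101 FPKM, against 115, 99.4 and 76.5 FPKM (0.14, adjusted p = 0.75), and Gad1, which makes GABA, at 32.9, 37.9 and 26.3 FPKM, against 30.9, 34.4 and 32.5 FPKM. The groups overlapped in all 4 genes. Limma called none of 18 general neuronal markers (median -0.02, and 0.03 when FPKM was rescaled without mitochondrial transcripts), of which none had an unadjusted p under 0.05. It called none of 24 vesicle release genes (-0.04, and 0.02 rescaled), 37 channels (-0.03, and 0.02 rescaled) and 25 postsynaptic genes (-0.05), with 2, 1 and 1 genes under an unadjusted p of 0.05. Nor did it call any of 14 inhibitory markers (median -0.21; 3 with an unadjusted p under 0.05), 16 cortical layer genes (0.11; 3) or 22 plasticity enzymes (-0.09; 0). A missed threshold does not show equal levels: the standard error for Rbfox3 and similar genes leaves moderate changes undetectable with 3 mice a group.

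The neuronal genes called were few. Slc17a6, the glutamate transporter of thalamic and other subcortical neurons, was the called gene among 14 excitatory markers, at 6.78, 5.02 and 4.63 FPKM, against 9.21, 11.3 and 23.2 FPKM in sham tissue (-1.17, SE 0.34, adjusted p = 0.0439). It is not called without sham right replicate 3 (adjusted p = 0.254) and without 4 other libraries. Gabra5, a subunit of extrasynaptic GABA receptors, was the called gene among 33 receptor genes, at 23.3, 21.6 and 16 FPKM, against 37.3, 34.3 and 38.4 FPKM (-0.84, adjusted p = 0.0436), and it loses its call without any single library, with an adjusted p of 0.245 without stroke 3 days replicate 8. In the axon growth list 2 of 21 rose, 9.52% beside 6.91% of all genes, which is near the background. The stress factor Atf3 measured 4.64, 1.99 and 3.17 FPKM, against 0.352, 0.262 and 0.159 FPKM (1.72, SE 0.2, adjusted p = 2.65e-05). The tubulin gene Tubb6 measured 15.2, 10.9 and 20.4 FPKM, against 1.78, 1.84 and 1.66 FPKM (2.54, SE 0.21, adjusted p = 1.44e-06).

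Regional markers differed between single punches. None of 13 striatal projection neuron genes was called (median -0.36), and 1 had an unadjusted p under 0.05. Adora2a was at 0.592, 3.96 and 0.36 FPKM in 3-day lesions, against 3.89, 2.44 and 3.09 FPKM in sham tissue, and Ppp1r1b at 24.3, 46.7 and 14.1 FPKM, against 37.5, 26.8 and 29.2 FPKM. Lesion replicates 1 and 8 were low in both genes, and replicate 2 was above sham. Ttr, the transthyretin of choroid plexus, was at 60.2, 220 and 0.407 FPKM, against 267, 144 and 226 FPKM (-2.96, adjusted p = 0.586), and none of 9 choroid plexus markers was called (median -0.45; 2 with an unadjusted p under 0.05). Their summed level was 142, 323 and 68.8 FPKM, against 231 to 362 FPKM. The depth and position of the punches in these values were not tested.

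Myelin genes were not lower by the test. Of 19 myelin genes 2 were called higher and none lower (median -0.09). Mbp was at 62.6, 87.4 and 59.7 FPKM in 3-day lesions, against 127, 78.5 and 125 FPKM in sham tissue (-0.64, adjusted p = 0.359). Replicate 2 overlapped with sham. Trf, the iron carrier made by oligodendrocytes, measured 136, 144 and 124 FPKM, against 40.1, 37.4 and 48.2 FPKM (1.67, SE 0.25, adjusted p = 0.000272). Cldn11 (0.64) loses its call without sham right replicate 2 (adjusted p = 0.172) and without 4 other libraries. Of 15 precursor and lineage genes Gpr17, a receptor of differentiating precursors, was called higher (13.1, 13 and 14.3 FPKM, against 7.21, 7.95 and 8.17 FPKM; 0.72, adjusted p = 0.0304), and no single omission kept that call, with an adjusted p of 0.126 without stroke 3 days replicate 8. The Gpr17 call makes up 6.67% of that list, near the share of all genes. Pdgfra, the precursor's growth factor receptor, was at 5.36, 5.11 and 6.31 FPKM, against 4.16, 3.99 and 3.91 FPKM (0.39, adjusted p = 0.195).

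Stress lists held smaller shares of called genes than glycolysis. Glycolysis and hypoxia genes were called higher in 33.3% of cases, beside 6.91% of all genes. The share was 17.4% for immediate early genes and 17.6% each for the heat shock and p53 lists. Of 23 immediate early genes 4 rose: Atf3, Ier3 (1.04), Maff (0.82) and Fosl1 (0.45). Maff and Fosl1 are not called without sham right replicate 2 (adjusted p = 0.0992 and 0.123), Maff also not without 3 other libraries and Fosl1 not without any other. The list median was 0.05 and turned to -0.02 under median-of-ratios scaling. Of 17 heat shock chaperones Hspb8 (0.94), Hspb1 (0.87) and Hspa1a (0.64) rose, with a list median of 0.02, or -0.05 under that scaling; Hspa1a, which shares reads with Hspa1b, is not called without stroke 3 days replicate 1 (adjusted p = 0.224) and without 4 other libraries. In the unfolded protein response 2 of 18 rose, 11.1% beside 6.91% of all genes, which is near the background (median 0.20). They were Pdia4 (0.93) and Calr (0.61), and Calr loses its call without stroke 3 days replicate 8 (adjusted p = 0.188) and without 4 other libraries. Among p53 targets and cell death genes Casp8 (1.39), Gsdmd (1.1) and Fas (0.79) rose out of 17 (median 0.28, with 15 positive), Fas not without stroke 3 days replicate 1 (adjusted p = 0.168) and not without 4 other libraries. Of 24 genes of glycolysis and hypoxia 8 rose (median 0.33) and 22 had a positive fold change. The count was 5 without stroke 3 days replicate 1 or any sham library. Slc16a3, which exports lactate, measured 3.86, 2.36 and 2.84 FPKM at 3 days, against 0.6, 0.423 and 0.533 FPKM in sham tissue (1.39, SE 0.14, adjusted p = 6.89e-06), and the hexokinases Hk3 (1.35) and Hk2 (1.09) rose as well.

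The 15 transcripts encoded in mitochondria all had a negative fold change (median -0.33), none was called, and 1 had an unadjusted p under 0.05. Quantile normalization turned that median to 0.03. Limma called none of 23 respiratory chain genes of the nucleus (median -0.20) and none of 24 proteasome genes (-0.03, and 0.02 rescaled without mitochondrial transcripts), with 0 and 1 genes under an unadjusted p of 0.05. Of 36 ribosomal proteins Rplp0 was called (0.70, adjusted p = 0.0226, and 0.101 without sham right replicate 2, with 4 other omissions that also end the call), with a list median of 0.05, or -0.01 under median-of-ratios scaling. Arg1, which passed the filter only through the 3-day libraries, was the called gene of 12 in arginine and polyamine metabolism (median 0.18). None of the other 11 was called. Of 13 long noncoding RNAs H19 (1.42) and Snhg1 (0.41) were called (median 0.41), and both lose the call without stroke 3 days replicate 8 (adjusted p = 0.234 and 0.282) and without 4 other libraries. These calls make up 15.4% of that list, and Rplp0 makes up 2.78% of its list, beside 6.91% of all genes.

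Markers of other blood cells were at low levels. Ly6g, which defines mouse neutrophils, was listed at 0 in all 6 libraries. S100a8 was at 1.93, 1.28 and 2.15 FPKM in 3-day lesions, against 1.31, 0.254 and 0.284 FPKM in sham tissue (0.83, adjusted p = 0.408). Of the 5 neutrophil markers tested, Lcn2 and Csf3r (3.78, 3.26 and 6.49 FPKM, against 0.899, 0.923 and 1.14 FPKM; 1.43) were called. Lcn2 is made by reactive astrocytes as well. Cd3e was at or below 0.0414 FPKM in every library and not tested, and neither of the 2 T, B and NK cell markers tested was called by limma or had an unadjusted p under 0.05. Of 5 dendritic cell markers tested, Bst2 and Siglech (0.60) were called, and Siglech loses its call without stroke 3 days replicate 8 (adjusted p = 0.0859) and without sham right replicate 1. None of 5 red cell genes was called by limma or had an unadjusted p under 0.05 (median -0.27).

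The 64 genes called lower were smaller in change than the rises. Fam168a (chr7:100706635-100841656, plus strand) measured 6.28, 4.49 and 4.76 FPKM in 3-day lesions, against 20.9, 21.5 and 19.8 FPKM in sham tissue (-1.83, SE 0.35, adjusted p = 0.00229). Unc13c, a protein that primes synaptic vesicles (chr9:73479422-73968966, minus strand), measured 2.19, 2.29 and 1.65 FPKM, against 6.04, 6.13 and 10.4 FPKM (-1.46, SE 0.23, adjusted p = 0.000533). Every lesion value of both genes was less than each sham value, which the rule that picked the largest falls required. 6430548M08Rik measured 11.8, 12.5 and 11.6 FPKM, against 32.7, 31.8 and 27.7 FPKM (-1.29, SE 0.28), Kctd4 10.23, 6.47 and 8.13 FPKM, against 15.5, 17.1 and 16.4 FPKM (-0.92, SE 0.17), and Nr3c2, the mineralocorticoid receptor, 3.27, 3.69 and 4.55 FPKM, against 7.79, 6.61 and 8.82 FPKM (-0.85, SE 0.18). These 5 genes and Insig1 were called whichever library was left out.

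The other genes among the 15 largest falls lose their call under 2 or more of the single omissions. Nts, the neuropeptide neurotensin, measured 0.86, 1.26 and 1.89 FPKM at 3 days, against 4.63, 7.31 and 8.14 FPKM in sham tissue (-1.71, adjusted p = 0.0107, and 0.0606 without stroke 3 days replicate 1 or 0.0577 without sham right replicate 3). Agt, angiotensinogen, measured 3.54, 1.48 and 1.63 FPKM, against 8.24, 6.82 and 16.6 FPKM (-1.81, adjusted p = 0.0274, and 0.158 without sham right replicate 3, with 3 other omissions that end the call). Necab2, a calcium-binding protein, fell by 0.99 on the log2 scale (adjusted p = 0.011, and 0.0705 without stroke 3 days replicate 8 or 0.0586 without sham right replicate 1). The protocadherin Pcdh20 fell by 0.83 (adjusted p = 0.0383, and 0.204 without stroke 3 days replicate 8), and Hsd11b1, which regenerates active glucocorticoid, fell by 0.84 (adjusted p = 0.0394, and 0.212 without sham right replicate 3). Each of these 2 genes loses its call without 3 other libraries too. Gm24270, annotated as a miRNA, was at 36.9, 53.9 and 11.1 FPKM, against 184, 98.5 and 159 FPKM (-2.29, adjusted p = 0.043, and 0.277 without stroke 3 days replicate 8), and is called in 1 of the 6 omissions. Slc17a6, Ptgds and Gabra5, given above, complete the set.

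The 3-day lesion was also set against the lesion at 1 day and at 10 days. These comparisons share the 3-day libraries with each other and with the sham comparison, so the values are given side by side and no overlap is counted. Against 1 day, 732 genes were called (5.22%), 711 higher at 3 days (5.07%) and 21 lower (0.15%). Without stroke 3 days replicate 8 there were 399, and without stroke 1 day replicate 1 or 3 there were 469 and 477. Against 10 days, 283 genes were called (2.02%), 167 higher at 3 days (1.19%) and 116 lower (0.828%). That split turned to 120 higher and 151 lower under median-of-ratios scaling and to 142 and 192 under quantile normalization, and 160 genes were called without stroke 3 days replicate 1. Stroke 10 days replicate 5 stood apart, with 44.6% of its FPKM in mitochondrial transcripts, against 29.3% and 29.8% in replicates 1 and 2. Its mean correlation with those replicates was 0.933. Without it 210 genes were called, and a fit of the 2 groups compared called 3. The median log2 fold change of all genes was 0.03 against 1 day and 0.15 against 10 days.

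Several proliferation genes were higher at 3 days than at the other times. Of the 6 mitosis genes that passed the filter without the 3-day libraries, 4 were called higher than at 1 day (median 1.15) and 2 higher than at 10 days (median 0.96). Of 18 such replication genes 8 were higher than at 1 day and 7 higher than at 10 days. Of all genes tested, 5.07% were higher than at 1 day and 1.19% higher than at 10 days. Pbk, a mitotic kinase, measured 9.63, 6.43 and 14.6 FPKM at 3 days, against 0.359, 0.488 and 1.29 FPKM at 1 day (2.69, adjusted p = 5.61e-06) and 1.74, 1.04 and 1.81 FPKM at 10 days (2.1, adjusted p = 0.000246). In sham tissue it was at 0.549, 0.757 and 0.594 FPKM. Rrm2 was 1.93 log2 units higher than at 10 days. Ccnd1 measured 26.1, 21.2 and 31.1 FPKM at 3 days, against 11.1, 11.3 and 14.3 FPKM at 1 day (1.03) and 9.46, 9.54 and 7.31 FPKM at 10 days (1.47).

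Phagocyte genes were higher at 3 days than at 1 day and, in part, lower than at 10 days. Disease-associated microglia genes had 11 of 22 higher than at 1 day, while 10 of 22 were lower than at 10 days. The shares of all genes were 5.07% and 0.828%. Spp1 was 3.5, Mpeg1 2.99 and Lyz2 2.64 log2 units higher than at 1 day. Mpeg1, a pore-forming protein of phagocytes, measured 59.6, 37 and 68.1 FPKM at 3 days, against 6.81, 5.87 and 6.79 FPKM in sham tissue. Cd5l and Gm49368 were among the 8 largest rises against 1 day, with Ifi27l2a (3.7). The lipid and phagocyte genes set the largest falls against 10 days. Clec7a measured 2.06, 1.01 and 2.37 FPKM at 3 days, against 30.9, 23.8 and 80 FPKM at 10 days (-3.87). Cst7 measured 4.27, 2 and 3.29 FPKM, against 36.2, 33.5 and 41.5 FPKM (-3.22). Lyz2, the lysozyme of myeloid cells, measured 109, 68 and 158 FPKM, against 624, 512 and 1900.2 FPKM at 10 days (-2.99). Apoe measured 272, 227 and 260 FPKM, against 1417, 1106 and 1199 FPKM (-2.28). In these 4 genes the 10-day values lay wholly above those at 3 days. No overlap was part of the rule that picked the largest falls. Apoc1 (-2.77), Gpnmb (-2.51), Col3a1 (-2.46) and Mmp3 (-2.45) were lower at 3 days too, and Igkc (-2.39) loses its call without stroke 3 days replicate 1 (adjusted p = 0.12), stroke 3 days replicate 8 or stroke 10 days replicate 5.

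Some acute genes were lower at 3 days than at 1 day. Ptx3, a soluble pattern recognition protein, measured 3.71, 1.02 and 1.94 FPKM at 3 days, against 18.5, 27.8 and 30.1 FPKM at 1 day (-3.1). The chemokines Ccl2 and Ccl12, both higher than sham, were below their 1-day values. Ccl2 measured 4.5, 3.25 and 5.42 FPKM at 3 days, against 11.5, 19.2 and 15.1 FPKM at 1 day (-1.59). Ccl12 measured 16.4, 13.8 and 19.4 FPKM, against 39.7, 69 and 59.3 FPKM (-1.67), and is not called against 1 day without stroke 1 day replicate 3 (adjusted p = 0.143) and without 4 other libraries. Ccl7 measured 1.72, 1.09 and 5.12 FPKM, against 7.12, 11.9 and 11.7 FPKM (-1.75). Of 15 chemokines 4 were lower and 2 higher than at 1 day, beside 0.15% and 5.07% of all genes. Hspb1 (-0.97) and Gpatch4 (-0.98) were lower at 3 days as well, while 6430548M08Rik (-1.13) and Macrod2 (-0.84) lose this call (adjusted p = 0.121 without stroke 1 day replicate 1, and 0.0799 without stroke 3 days replicate 1), under 5 and 3 of the 6 omissions.

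Other genes stood out at 3 days against 10 days. Tgm1 was 3.42, Arg1 3.15, Igfbp2 2.29 and Hmox1 2.18 log2 units higher than at 10 days. Fabp7 measured 149, 120 and 215 FPKM at 3 days and 12.2, 17.1 and 15.3 FPKM at 1 day (3.32), and was 2.02 units higher than at 10 days. Arc, an immediate early gene of neurons, measured 57.3, 78.7 and 71.8 FPKM at 3 days, against 12.6, 22 and 9.25 FPKM at 10 days (2.24, adjusted p = 0.000246), with 91.6, 85.8 and 70.6 FPKM in sham tissue. Fos was at 9.73, 13.9 and 25.6 FPKM at 3 days, against 2.94, 3.56 and 4.85 FPKM at 10 days (1.78, adjusted p = 0.0016). Of 23 immediate early genes 9 were higher at 3 days than at 10 days and none lower, beside 1.19% and 0.828% of all genes. For reactive astrocyte genes the counts were 3 higher and 3 lower of 23 against 1 day, and 6 higher and none lower against 10 days. Against 1 day, 5.07% of all genes were higher and 0.15% lower. Of the 22 that passed the filter without the 3-day libraries, 5 were higher than at 10 days. Gfap and Vim were called higher than at 10 days, with an adjusted p of 0.222 and 0.214 without stroke 3 days replicate 1. Gfap loses this call whichever library is left out, and Vim in 5 of the 6 omissions.

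**Figure D5:**
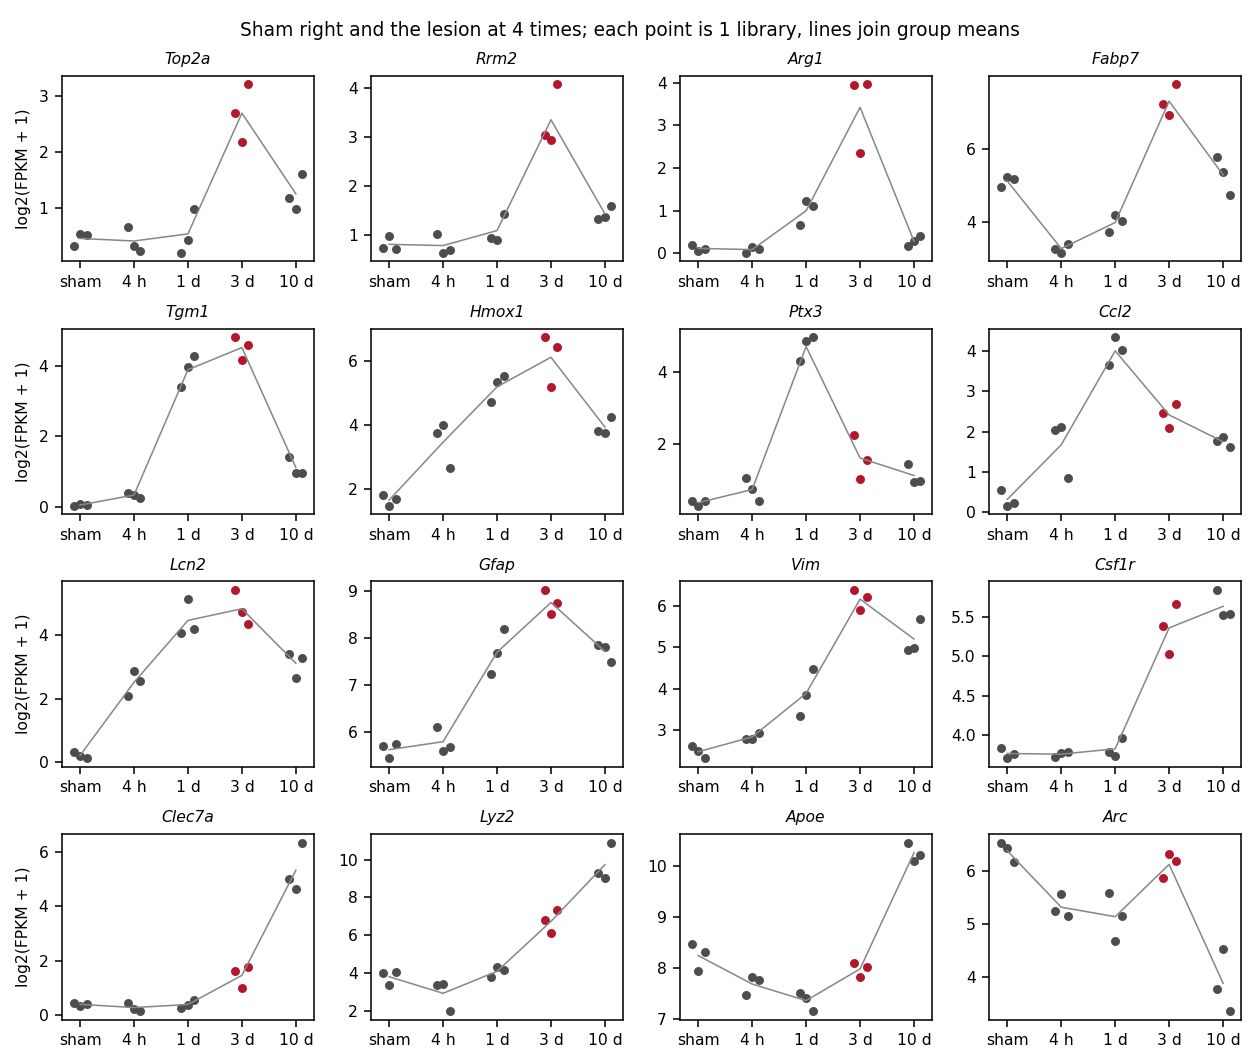
Log2(FPKM + 1) of 16 genes in each library of sham right, 4 h, 1 day, 3 days and 10 days, in that order, 1 point a library with lines through the group means. Top2a, Rrm2, Arg1, Fabp7 and Tgm1 are highest at 3 days, Ptx3 and Ccl2 at 1 day, and Clec7a, Lyz2 and Apoe at 10 days.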

How the data were processed

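Per the labels' protocols, total RNA from micro-punches was prepared with Trizol and a total RNA library kit, and the labels give 3 animals per group. The p-values rest on the spread within groups pooled over all 18 libraries, not on that of the 2 groups compared alone. The tools named in the submitters' processing notes are Trimmomatic (0.36), HISAT2 (2.1.0) and, per the same notes, StringTie (1.3.4d), with build GRCm38. Settings, gene annotation and strand handling are not given in the sources used here, so overlapping and antisense genes are uncertain. FPKM were used as deposited by the authors. They divide by length and by library size, so a change in abundant RNA shifts all other genes, and near-identical genes may share reads. The table's p-value and q-value columns, deposited by the authors for an unstated comparison, served here only to see how entries are ordered. The copy used holds 34921 complete entries, and about 3101 more, at the high end of the q-values, were not analysed here, some members of the gene lists with them.

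Log2(FPKM + 1) of 14016 genes was fitted with limma 3.58.1 (R 4.3.3, statmod 1.5.0), using all 18 libraries and a mean for each group, moderated by empirical Bayes (trend and robust options), 2-sided contrasts and Benjamini-Hochberg adjustment over all genes. All groups share 1 estimate of the spread. The fit was tested on simulated data. Names and positions are from GENCODE M21 (34837 entries matched), promoters from RefSeq (GRCm38.p6). Figures used Python 3.11.15, pandas 2.3.3, numpy 2.4.6 and matplotlib 3.10.9.

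The members and the 69 gene lists were chosen with earlier results of these data known. Named genes are the 15 largest rises and falls with a higher group mean of at least 5 FPKM and no overlap, the 4 members of each list with the smallest adjusted p (all where 5 or fewer were called, and those against the list's direction), the 8 largest rises and falls against 1 day and 10 days, a panel of genes and cell type markers, and uncalled members. Ftl1 and Ifit3 fall outside this rule and were named after their values were seen. The alternatives were other pseudocounts, filters and scalings, fits of fewer libraries, a replicate block and another control group. A filter on the 15 libraries other than those at 3 days was added after seeing the data. Values of some list members are not reported here.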

Additional observations from a re-analysis of the deposited data

Results flagged for a closer look

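There were 4 genes called in opposite directions against sham right at 3 days and at 4 h. Both calls share the sham libraries. The difference between these times joins both changes, so its passing the threshold in limma's fit was largely set by how the genes were picked. It is given as a size and adds no support. Fabp7, the fatty acid carrier, was 4.04 log2 units higher at 3 days than at 4 h (adjusted p = 6.86e-07), with 149, 120 and 215 FPKM at 3 days, 8.53, 7.82 and 9.52 FPKM at 4 h and 30, 36.1 and 35.1 FPKM in sham tissue. Klhl6 was 2.03 units higher at 3 days than at 4 h (adjusted p = 5.24e-07), with 5.43, 3.5 and 4.76 FPKM at 3 days, 0.402, 0.447 and 0.217 FPKM at 4 h and 1.09, 0.781 and 1.25 FPKM in sham tissue. Slc38a5, an amino acid transporter, was 1.75 units higher at 3 days than at 4 h (adjusted p = 6.59e-06), with 4.05, 2.65 and 3.36 FPKM at 3 days, 0.47, 0.212 and 0.189 FPKM at 4 h and 2.18, 1.3 and 1.85 FPKM in sham tissue. AU021092 was 1.67 units higher at 3 days than at 4 h (adjusted p = 1.46e-05), with 3.52, 3.74 and 3.53 FPKM at 3 days, 0.573, 0.302 and 0.484 FPKM at 4 h and 1.95, 1.95 and 1.99 FPKM in sham tissue. The 3-day call of AU021092 against sham right (adjusted p = 0.045) is lost whichever library is left out (0.129 without sham right replicate 2), and that of Slc38a5 (adjusted p = 0.0304) without sham right replicate 2 (0.177) and without 3 other libraries. In all 4 genes every 3-day value lay above every sham value and every 4 h value below every sham value, which largely restates how they were picked.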

How the results depend on the processing

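Against sham right, 243 genes were called with a filter of a mean of at least 5 FPKM, 1834 in a fit of the 2 groups compared and 1772 without contralateral left replicate 5 and stroke 10 days replicate 5. Against 1 day the count was 167 with that filter and 1290 without those libraries, and against 10 days 173 with a pseudocount of 0.1, 76 with that filter and 3 in a fit of the 2 groups compared; filters test fewer genes, and otherwise the cause was not tested. With 1 library left out, 680 to 1050 genes were called against sham right, 399 to 795 against 1 day and 160 to 336 against 10 days, and 635 of 1032, 371 of 732 and 133 of 283 were called in every such fit. All 18 libraries entered the fit as independent. Same-numbered 3-day and sham right libraries had correlations of -0.056 and -0.151. Whether same-numbered left and right control libraries come from the same mouse was not tested. With the replicate numbers as a block 709, 377 and 142 genes were called. The fit without contralateral left replicate 5 and stroke 10 days replicate 5 was not run against 10 days, since it removes a library compared. The other pseudocounts, filters and scalings gave 885 to 1124 calls against sham right, and the contralateral left as control gave 1400, with 8 of the 1032 genes of the other sign. The filter added after seeing the data gave 899, 620 and 214. The median of all fold changes against sham right was 0.075 as deposited, 0.116 without mitochondrial transcripts, 0.02 with median-of-ratios scaling and -0.046 after quantile normalization. Read depth is unknown, so precision rests on 3 libraries a group.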
